A study of Mus musculus with 3 samples.

Results

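The dual-specificity MAP kinase phosphatases described here are 8 genes, Dusp1, Dusp3, Dusp4, Dusp5, Dusp6, Dusp8, Dusp10 and Dusp16. They were taken by gene symbol, and all 8 were found among the 23361 genes measured. The RNA came from livers of C57BL/6J mice that were labelled male and were 8 to 10 weeks old, and they were fasted for 12 h before surgery. No genetic change was named for any group. The sham group had the abdomen opened without clamping and a wait of 90 min, the warm ischemia (WI) group had the vessels and bile duct of the left and median lobes clamped for 90 min, and the ischemia-reperfusion (IR) group had the same 90 min clamp followed by 120 min of restored flow. All groups shared chloral hydrate anesthesia and a midline laparotomy. The study used 6 mice per group. Each group is represented by 1 library, with pooling of mice and the lobe sampled left unstated. Expression is given as FPKM, the number of fragments scaled for transcript length and for the size of the library, with the lower and upper 95% bounds that Cuffdiff attached to each value. These bounds come from Cuffdiff's model with 1 library per group and what enters them was not tested, so no difference has a replicate check and no p-value is given.

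MAP kinases (ERK, JNK and p38) are switched on by phosphorylation of a threonine and a neighbouring tyrosine in the activation loop. Dual-specificity phosphatases remove both phosphates and thereby switch the kinase off. Several of these phosphatase genes are themselves transcribed in response to MAP kinase signalling, which closes a negative feedback loop, and they differ in where in the cell they act and in which kinase they prefer. In liver, JNK and p38 are activated by ischemia and by the return of oxygen, and ERK signalling accompanies the start of regeneration.

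The libraries differed in ways that touch every comparison with IR. Xist, the RNA of the inactive X chromosome, was at 18.9 FPKM in sham, 20.1 in WI and 1.29 in IR. The Y-linked genes Eif2s3y and Ddx3y were at 0 in sham, at 0 and 0.0085 in WI, and at 13.2 and 8.58 in IR. The sham and WI libraries thus go against the label male, and in IR comparisons reperfusion cannot be told apart from this difference or from the added 120 min after surgery, for which there is no matched sham. The summed FPKM was 475754 in sham, 487912 in WI and 712423 in IR. Bringing the libraries to a common sum lowered the median log2 change of all genes by 0.44 in IR versus WI and by 0.47 in IR versus sham. The liver label held for 4 of 5 hepatocyte markers, while Alb was listed at 0 in every library with the status of a locus too deep to process. The summed FPKM of 7 neutrophil markers measured was 25.4 in sham, 19.3 in WI and 460.3 in IR. That of 7 Kupffer cell or macrophage markers was 294.4, 163.9 and 106.1. Of these, Marco (20.9, 12.6 and 25.3) and Cd68 (18.5, 12.3 and 18.5) were higher in IR than in WI, and the others were lower.

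The level of the family was split into tiers. In the sham library the order was Dusp1, Dusp6, Dusp3, Dusp16, Dusp10, Dusp8, Dusp5 and Dusp4, from high to low. The 95% bounds of Dusp6 and Dusp3 did not overlap in that order, nor did those of Dusp16 and Dusp10, while all other neighbours overlapped. The WI library had the same 3 tiers, with Dusp6 ahead of Dusp1 and with Dusp8 last. In the IR library the upper tier of Dusp1 and Dusp6 was still separated from the rest, but from Dusp16 down to Dusp4 every neighbouring pair overlapped. Dusp1 and Dusp6 together held 79.2% of the members' summed FPKM in sham, 80.0% in WI and 72.3% in IR. Dusp4, Dusp5, Dusp8 and Dusp10 held 3.66% in sham, 2.98% in WI and 13.1% in IR. They were grouped as the members with their highest FPKM in IR, so a larger share there follows from the choice. The summed FPKM of the 8 genes was 120.4, 99.9 and 120.1 in that order. At a common sum over the libraries it was 141.4, 114.4 and 94.2, so the total in IR was close to that in sham only as deposited. Since the samples are pieces of liver tissue, more RNA per cell and more cells that express a gene cannot be told apart.

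**Figure D1:**
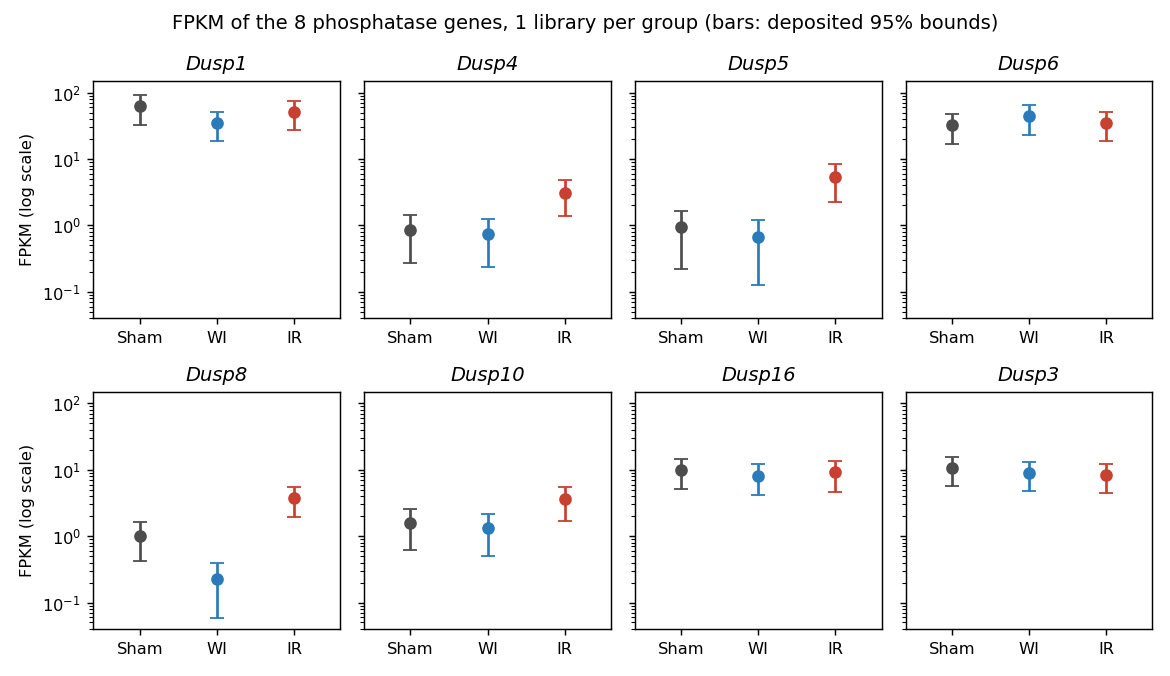
FPKM of each phosphatase gene on a log axis in the sham, WI and IR libraries, with bars for the deposited 95% bounds. Dusp4, Dusp5, Dusp8 and Dusp10 had their highest value in IR. The bounds of Dusp1, Dusp6, Dusp10, Dusp16 and Dusp3 overlapped in all 3 libraries, and the IR bounds of Dusp4 overlapped those of sham.

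The promoter windows of 3 members are shown because they hold the motif matches described next: Dusp8 and Dusp5 had the widest range of FPKM, and Dusp1 is the classical immediate early member. The windows run from 250 bases before to 50 bases after the RefSeq transcription start in GRCm38.p6, and are written 5′ to 3′ on the strand of the gene. A search was made on both strands for the cyclic AMP response element (CRE, TGACGTCA), the CRE core (TGACG), the AP-1 site (TGACTCA), the CArG box bound by serum response factor, a heat shock element (GAANNTTC) and the core of the hypoxia response element (ACGTG). Capitals mark CREs, CRE cores (on the other strand these read CGTCA) and CArG boxes.
Dusp1, chr17:26508423-26508722, minus strand: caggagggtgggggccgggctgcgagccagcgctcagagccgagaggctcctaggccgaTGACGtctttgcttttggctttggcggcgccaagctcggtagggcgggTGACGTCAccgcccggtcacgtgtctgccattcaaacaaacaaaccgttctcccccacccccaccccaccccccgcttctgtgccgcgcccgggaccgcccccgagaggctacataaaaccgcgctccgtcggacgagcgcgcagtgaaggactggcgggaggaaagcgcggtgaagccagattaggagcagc
Dusp5, chr19:53528895-53529194, plus strand: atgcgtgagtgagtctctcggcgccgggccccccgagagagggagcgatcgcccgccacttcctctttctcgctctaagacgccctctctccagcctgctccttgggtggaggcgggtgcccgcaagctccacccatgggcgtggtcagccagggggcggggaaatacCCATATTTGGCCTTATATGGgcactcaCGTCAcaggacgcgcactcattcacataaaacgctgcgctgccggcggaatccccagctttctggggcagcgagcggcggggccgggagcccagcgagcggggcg
Dusp8, chr7:142095235-142095534, minus strand: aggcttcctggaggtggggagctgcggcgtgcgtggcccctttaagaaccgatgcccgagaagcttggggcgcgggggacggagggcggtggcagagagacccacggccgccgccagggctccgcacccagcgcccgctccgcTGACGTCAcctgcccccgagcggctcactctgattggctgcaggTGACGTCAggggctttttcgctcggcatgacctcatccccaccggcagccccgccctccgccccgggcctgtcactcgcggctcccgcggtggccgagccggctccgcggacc

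The Dusp8 window held 2 full CREs, starting 107 and 63 bases upstream of the start site, and the Dusp1 window held 1 at 143 bases upstream. At least 1 CRE was present in 1.79% of all 32851 windows of that length, and at least 2 in 0.0396%. The Dusp5 window held 2 CArG boxes side by side, at 82 and 72 bases upstream, against 1.63% of windows with at least 1 and 0.0183% with at least 2. A CRE core outside a full CRE was found in Dusp1, Dusp5 and Dusp16, and 20.8% of windows held such a core, those within a full CRE included. The AP-1 letters were in none of the members' windows and in 5.2% of all windows. The heat shock element was found in Dusp16 alone of the members, against 7.86% of windows, and the ACGTG core in Dusp1, Dusp3 and Dusp5, against 19.6%. In Dusp5 this match overlapped the CRE core. Dusp6 and Dusp10 held none of these motifs. The table held windows for 7 of the 8 members, without Dusp4. The loci that the files give for Dusp5 and Dusp10 began downstream of the starts used here, and the RefSeq genes Dusp3, Dusp8 and Dusp16 extend upstream of theirs, to starts whose windows were not examined. A match is a string of letters, and binding was not measured.

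**Figure D2:**
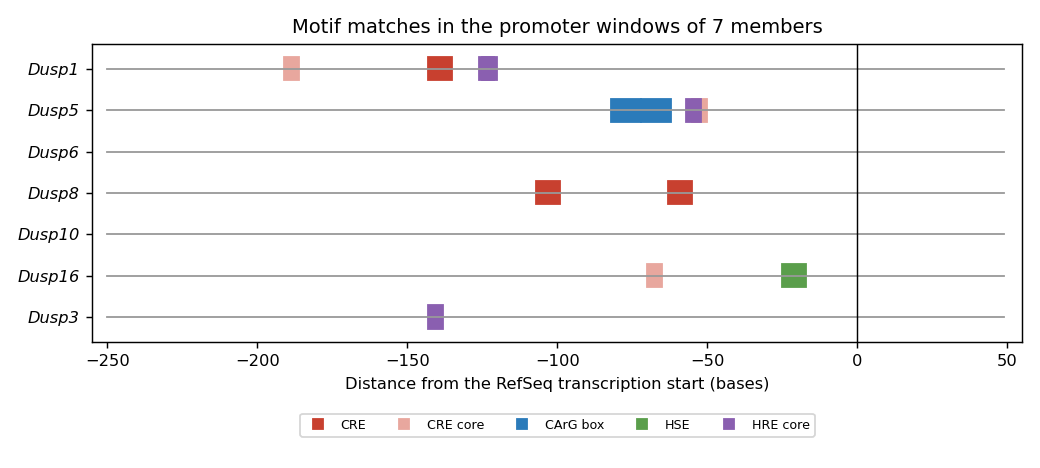
Motif matches in 300-base promoter windows of 7 members, drawn by distance in bases from the RefSeq transcription start (vertical line). Boxes are CRE, CRE cores outside a full CRE, CArG boxes, heat shock elements (HSE) and cores of the hypoxia response element (HRE), and the 2 CREs of Dusp8 and the 2 adjoining CArG boxes of Dusp5 lie within 107 bases of the start.

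**Figure D3:**
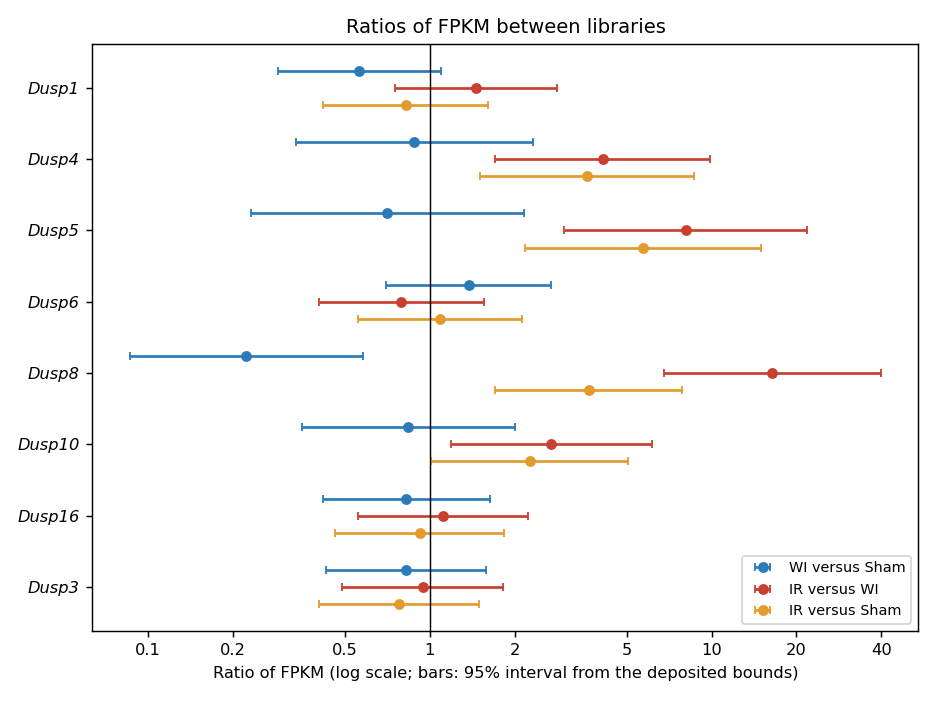
Ratio of FPKM between libraries for each member on a log axis, with bars for the 95% interval derived from the deposited bounds. As deposited, the intervals of Dusp4, Dusp5, Dusp8 and Dusp10 lie above 1 in IR versus WI. In WI versus sham only the interval of Dusp8 lies off 1.

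The comparison of WI with sham asks what ischemia without reflow does to these transcripts. Of the 8 members 0 were higher by 2-fold or more on the FPKM + 1 scale and 0 were lower. Of the 10792 genes that reached an FPKM of 1 in any library, and so were tested, 0.751% were higher and 1.1% were lower by that rule. By the bounds, 0 members lay above their sham bounds, against 0.195% of genes, and 1 member, Dusp8, lay below them, against 0.482% of genes. The median log2 change was -0.23 over the members and 0.02 over all genes tested.

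In IR versus WI, which addresses reflow after the clamp, 3 members rose at least 2-fold, Dusp4, Dusp5 and Dusp8, and 0 fell. The share of all genes called was 5.78% higher and 1.43% lower. The bounds of the same 3 members lay above those in WI, against 3.22% of genes, and 0 members lay below, against 0.398%. The median log2 change was 0.76 over the members and 0.03 over all genes.

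In IR versus sham the same 3 members rose at least 2-fold and 0 fell, while 5.35% of all genes were higher and 2.15% were lower. The bounds of Dusp5 and Dusp8 lay above those in sham, against 2.7% of genes, and 0 members lay below, against 1.12%. The median log2 change was 0.47 over the members and 0.05 over all genes. Both IR comparisons share the IR library and are not independent. Dusp4 and Dusp5 reached an FPKM of 1 only in IR, so they entered the genes tested through the library in which they were high, and the counts are given as a description. At a common sum of FPKM, 2 members (Dusp5 and Dusp8) were past 2-fold in IR versus WI and 1 (Dusp5) in IR versus sham. The bounds of 2 members then lay above WI and of 0 above sham, and the share of all genes with separate bounds was not counted at that scaling. Of the 10939 genes then tested, 322 were higher and 833 lower in IR versus WI (10.6% in all), against 624 and 154 as deposited. For IR versus sham these counts were 269 and 1110 (12.6% in all), against 577 and 232.

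**Figure D4:**
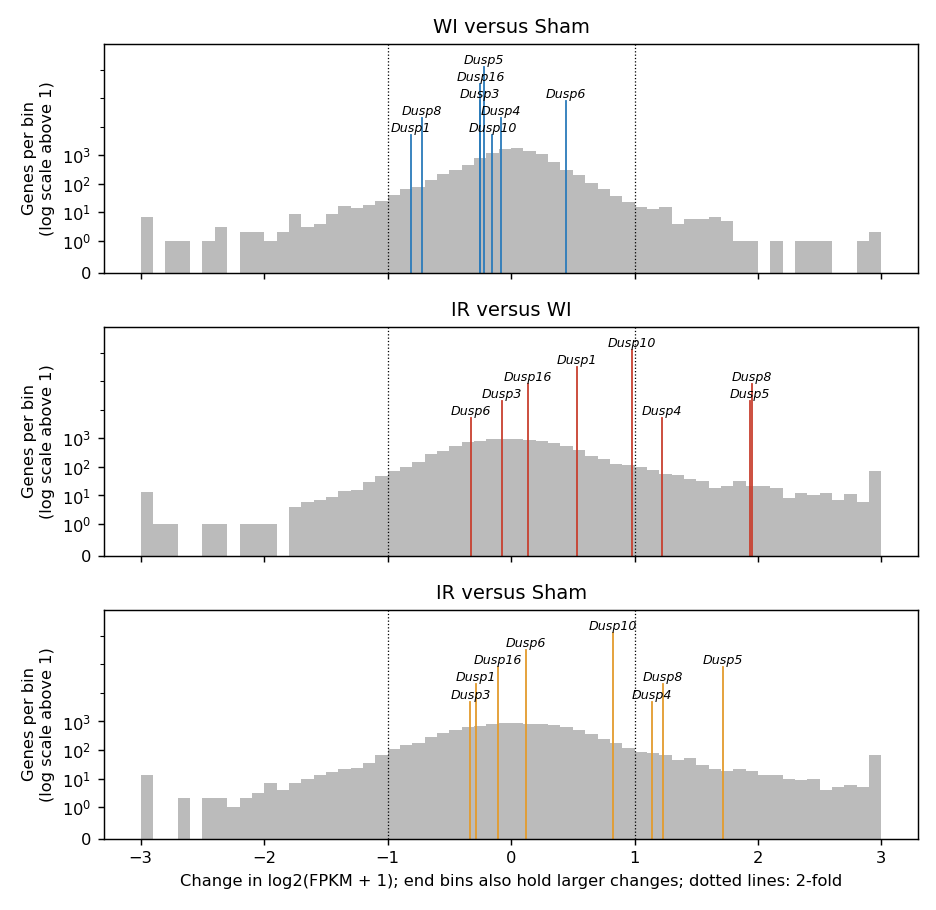
Number of genes per bin of change in log2(FPKM + 1) for the 10792 genes tested, with a labelled line at the change of each member (line heights carry no value) and dotted lines at 2-fold. All members lie inside the dotted lines in WI versus sham, and Dusp4, Dusp5 and Dusp8 lie beyond the upper line in both IR comparisons.

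Dusp8 (chr7:142079487-142095284, mm10), a phosphatase directed at JNK and p38, had the widest range of the family. Its FPKM was 1.02 in sham (bounds 0.417 to 1.63), 0.228 in WI (0.0585 to 0.398) and 3.75 in IR (1.93 to 5.56). As deposited, the 3 libraries stood in the order WI, sham, IR with no overlap of bounds between any pair. The ratio of WI to sham was 0.223 (95% interval 0.0863 to 0.578), which is 4.48-fold lower (1.73 to 11.6). The log2(FPKM + 1) change was -0.72, short of 2-fold, because both values were near the pseudocount of 1. IR exceeded WI 16.4-fold (6.76 to 39.9), with a log2(FPKM + 1) change of 1.95, and exceeded sham 3.67-fold (1.71 to 7.88), with a change of 1.23. Among all genes by FPKM, Dusp8 moved from rank 10273 in sham to 12427 in WI and 6848 in IR. At a common sum the change was 1.64 in IR versus WI and 0.84, under 2-fold, in IR versus sham, where the bounds then overlapped.

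Dusp5 (chr19:53529318-53541322), a nuclear phosphatase specific for ERK, was low before reflow. Its FPKM was 0.938 in sham (0.218 to 1.66), 0.663 in WI (0.126 to 1.20) and 5.36 in IR (2.26 to 8.46). Sham and WI overlapped, and as deposited IR stood above both. IR exceeded WI 8.09-fold (2.99 to 21.9) and sham 5.71-fold (2.18 to 14.9), and WI to sham was a ratio of 0.706 (0.231 to 2.16). The log2(FPKM + 1) change was 1.94 in IR versus WI and 1.71 in IR versus sham, which placed Dusp5 at percentile 98.2 of all genes in the former. Dusp5 stayed past 2-fold at a common sum, with changes of 1.56 and 1.31, but its IR and sham bounds then overlapped. It went from rank 10432 in sham to 5853 in IR.

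Dusp4 (chr8:34807610-34819894), a nuclear phosphatase for ERK, JNK and p38, followed the same order of libraries as Dusp5 at a lower amplitude. Its FPKM was 0.853 in sham (0.274 to 1.43), 0.751 in WI (0.234 to 1.27) and 3.08 in IR (1.39 to 4.77). The lower IR bound cleared the upper bound of WI and fell just short of that of sham. IR exceeded WI 4.10-fold (1.70 to 9.89) and sham 3.61-fold (1.51 to 8.64). WI to sham was 0.880 (0.335 to 2.31). The log2(FPKM + 1) change of 1.22 in IR versus WI became 0.88 at a common sum, and 1.14 in IR versus sham became 0.77, both under 2-fold, and its IR and WI bounds then overlapped.

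Dusp10 (chr1:184034461-184075636), another phosphatase directed at JNK and p38, was just outside the rule and was called in both IR comparisons with a pseudocount of 0.1 or 0.01 or a 1.5-fold rule. In that order, these settings called 11.5%, 12.3% and 19.8% of all genes in either direction in IR versus WI. In IR versus sham the shares were 13.2%, 13.9% and 23.8%. The FPKM of Dusp10 was 1.59 in sham (0.625 to 2.56), 1.33 in WI (0.50 to 2.17) and 3.6 in IR (1.70 to 5.51). IR was the highest library, and its bounds overlapped both others. The log2(FPKM + 1) value in IR differed from WI by 0.98, a factor of 1.97, and from sham by 0.83. The FPKM ratio was 2.70 (1.19 to 6.13) to WI and 2.26 (1.01 to 5.06) to sham. As deposited, both intervals thus lay above 1 although the bounds overlapped. At a common sum the log2(FPKM + 1) changes were 0.60 against WI and 0.41 against sham, and the intervals were not recomputed. The ratio of WI to sham was 0.838 (0.35 to 2.0).

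Dusp1 (chr17:26505591-26508472), the nuclear immediate early member that acts mainly on p38 and JNK, was the most abundant in sham. Its FPKM was 62.9 in sham (32.8 to 93.0), 35.4 in WI (18.9 to 51.8) and 51.6 in IR (27.2 to 76.0). All 3 ranges overlapped. The ratio was 0.562 (0.288 to 1.10) for WI to sham, 1.46 (0.751 to 2.83) for IR to WI and 0.820 (0.418 to 1.61) for IR to sham. Its log2(FPKM + 1) change of -0.81 in WI versus sham was at percentile 2.0 of all genes yet under 2-fold, and the interval leaves room for a fall of 3.47-fold or for a slight excess. At a common sum the difference of 0.53 between IR and WI became -0.0016, and that of -0.28 between IR and sham became -0.85.

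Dusp6 (chr10:99263231-99267489), the cytoplasmic phosphatase specific for ERK and a textbook readout of ERK feedback, was the other abundant member. Its FPKM was 32.4 in sham (17.2 to 47.7), 44.5 in WI (23.1 to 65.9) and 35.3 in IR (18.5 to 52.0). The ranges overlapped, and Dusp6 was the only member with its highest value in WI. The ratio was 1.37 (0.70 to 2.69) for WI to sham, 0.792 (0.403 to 1.56) for IR to WI and 1.09 (0.557 to 2.12) for IR to sham. Its IR versus sham difference of 0.12 on the log2(FPKM + 1) scale turned to -0.45 at a common sum. That in IR versus WI went from -0.33 to -0.86. The ERK-specific members Dusp5 and Dusp6 thus stood in opposite order in WI and IR, with Dusp5 called and Dusp6 not. The difference between these responses was not tested.

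Dusp16 (chr6:134715473-134792628), a phosphatase directed mainly at JNK, varied least. Its FPKM was 9.90 in sham (5.14 to 14.7), 8.18 in WI (4.21 to 12.1) and 9.11 in IR (4.59 to 13.6). The highest library exceeded the lowest 1.21-fold. The ratio of IR to WI was 1.11 (0.556 to 2.23), so a doubling is still inside the interval, and the log2(FPKM + 1) difference of 0.14 turned to -0.35 at a common sum. The ratio was 0.826 (0.417 to 1.64) for WI to sham and 0.920 (0.461 to 1.84) for IR to sham. The members directed at JNK and p38 therefore ranged from 16.4-fold between libraries for Dusp8 to 1.21-fold for Dusp16.

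Dusp3 (chr11:101971144-101984791) encodes VHR, a small phosphatase without the kinase-binding domain of the other members. Its FPKM was 10.7 in sham (5.77 to 15.7), 8.85 in WI (4.75 to 13.0) and 8.34 in IR (4.48 to 12.2). The ranges overlapped, with a ratio of 0.824 (0.428 to 1.59) for WI to sham, 0.942 (0.489 to 1.81) for IR to WI and 0.777 (0.403 to 1.5) for IR to sham. Its log2(FPKM + 1) change of -0.08 in IR versus WI became -0.56 at a common sum, and -0.33 in IR versus sham became -0.85, both under 2-fold.

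The genes with the most similar pattern were sought for the 3 called members, by the Euclidean distance between log2(FPKM + 1) profiles centred over the 3 libraries among 10791 other genes. With 3 points per profile this is a description only. The pseudocount of 1 compresses low genes, so near profiles on this scale need not have like ratios of FPKM. Among the genes nearest to Dusp4, Ces3a was at 326.6 in sham, 311.9 in WI and 717.7 in IR, and Serpina3c at 0.106, 0.0657 and 1.44. Ngp and Serpina3c passed the filter only through IR. Nearest to Dusp4 were Ces3a, a carboxylesterase (distance 0.0155), Ngp, a neutrophil granule protein (0.0184), and Serpina3c (0.0227). Nearest to Dusp5 were Adamts1, a secreted metalloprotease (0.0412), Bcl2l1, which encodes the survival protein Bcl-xL (0.0669), and Egfr, the receptor for epidermal growth factor (0.0678). The FPKM of Egfr was 50.5 in sham, 40.4 in WI and 160.7 in IR. Nearest to Dusp8 were 3110043O21Rik (0.0126), Nedd4l, a ubiquitin ligase (0.0249), and Ifi205, an interferon-inducible gene (0.0252). The members were not each other's closest genes: 149 genes lay nearer to Dusp5 than Dusp8 did, and 223 lay nearer to Dusp4 than Dusp10 did.

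The other phosphatases of the pathway were not called by the 2-fold rule on the FPKM + 1 scale. Of the 3 remaining MAP kinase phosphatases, 2 passed the filter and 0 were called in any comparison. Dusp2, a nuclear member of immune cells, was at 0.70 in sham, 0.463 in WI and 1.32 in IR, and Dusp7, a close relative of Dusp6, at 1.91, 1.30 and 1.11. The ratio of IR to WI was 2.86 for Dusp2, beside 2.70 for Dusp10, and 0.856 for Dusp7. Dusp2 lay near the pseudocount of 1, and its IR and WI bounds overlapped. None of the 8 atypical dual-specificity phosphatases that passed, of 15 listed, was called in any comparison, nor was any of the 5 of 8 other phosphatases acting on MAP kinases. Among the atypical genes Dusp14 was at 0.61 in sham, 0.665 in WI and 1.33 in IR, while their median log2 change was -0.25 in IR versus WI.

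The MAP kinases are the substrates of the members. Of 14 MAP kinases 9 passed and 0 were called in any comparison. Mapk3 (ERK1) was at 17.5 FPKM in sham, 18.6 in WI and 17.0 in IR, and Mapk8 (JNK1) at 4.02, 3.63 and 3.55. Mapk9 (JNK2) was at 9.45, 11.0 and 7.66, and Mapk14 (p38 alpha) at 32.7, 25.7 and 27.1. These are transcript levels, and the phosphorylation that the phosphatases act on was not measured.

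Upstream, 0 of 7 MAP2 kinases were called in WI versus sham or IR versus WI, and 1 rose in IR versus sham. This was Map2k3, an activator of p38, at 27.0, 31.3 and 57.0 FPKM in sham, WI and IR. Of 18 MAP3 kinases 16 passed. In IR versus WI, Map3k6 (log2 change 1.70) and Map3k8 (1.49), which encodes the ERK-activating kinase Tpl2, rose and Map3k13 fell (-1.09). In IR versus sham Map3k8 rose (1.02) and Map3k13 fell (-1.32), and 0 were called in WI versus sham. Among kinases downstream of MAP kinases, 8 of 10 passed and 1 was called, Mapkapk2, the p38 target MK2, which rose in both IR comparisons (1.57 against WI and 1.17 against sham) from 28.7 in sham and 21.5 in WI to 66.0 in IR. Of 8 other ERK pathway feedback inhibitors 6 passed and 0 were called. Spry2 had the largest change among them in IR versus WI, at 0.755, 0.489 and 1.23, a ratio of 2.52 to WI. It passed the filter only through IR and lay near the pseudocount of 1. The list median there was 0.27, and the lists were not recounted with smaller pseudocounts. Errfi1, an inhibitor of the epidermal growth factor receptor, was at 400.3, 266.4 and 396.0. When the libraries were brought to a common sum, Map2k3 was no longer called, Map3k8 and Mapkapk2 were called only against WI, Map2k6 and Map3k7 were called lower in both IR comparisons and Rps6ka1 in IR versus sham, and 0 MAP kinases or other listed phosphatases were called.

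**Figure D5:**
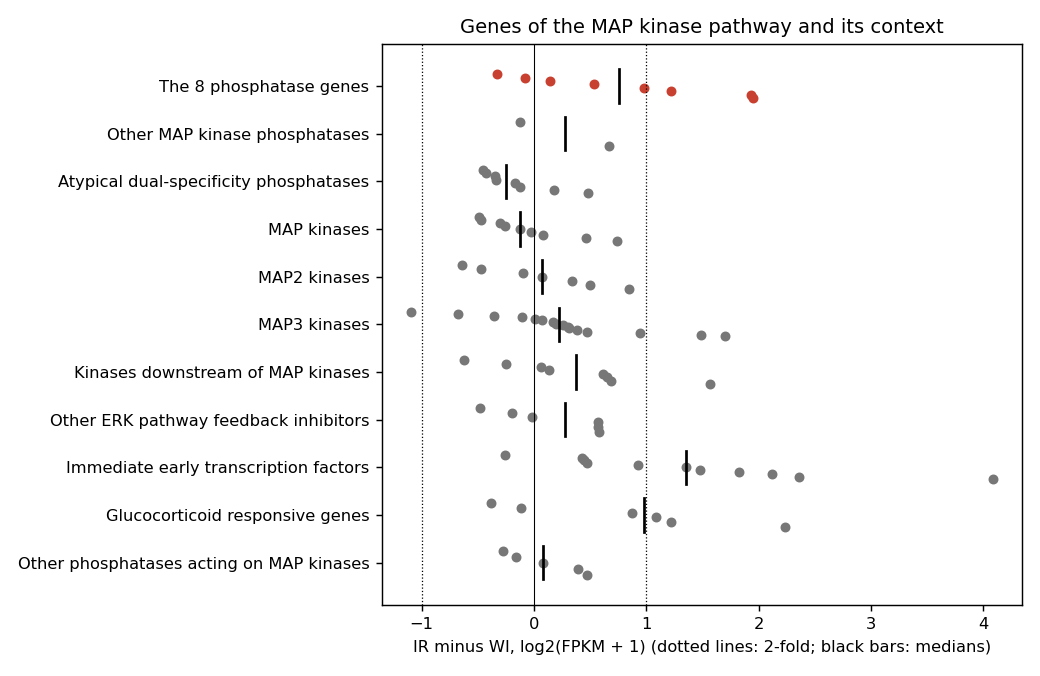
Difference between IR and WI in log2(FPKM + 1) for the phosphatase genes and for members of each related list that passed the filter, with black bars at list medians and dotted lines at 2-fold. Immediate early transcription factors reached the largest values, up to 4.09 for Atf3, while the MAP kinases all lay inside the dotted lines.

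Transcription factors of the immediate early class, which MAP kinases induce, were counted beside the members. Of 14 listed, 11 passed. In WI versus sham Fos rose (1.69) and Myc fell (-1.47). In IR versus WI 6 rose, Fosl2, Jun, Junb, Jund, Atf3 and Myc, and 0 fell, with a list median of 1.35 beside 0.03 over all genes. Atf3, a stress-induced repressor that binds CRE sequences, was at 8.72 in sham, 5.76 in WI and 114.0 in IR. In IR versus sham 4 rose, Fos, Junb, Jund and Atf3, with a median of 0.88. Scaled to a common sum, 4 rose in IR versus WI, without Fosl2 and Jun, and 4 rose in IR versus sham, where 1 fell. Fos rose in WI, the library in which Dusp1, Dusp4, Dusp5, Dusp8, Dusp10 and Dusp16 had their lowest FPKM as deposited. Among these members only Dusp8 had WI bounds apart from those of sham. At a common sum Dusp1 and Dusp16 were lowest in IR, with changes of -0.0016 and -0.35 in IR versus WI. A link between Fos and the members was not tested.

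Dusp1 is also a classical glucocorticoid target, and 6 such genes were measured beside it. In WI versus sham 3 of 6 fell, Fkbp5 (-2.37), Zbtb16 and Ddit4 (-2.72), and in IR versus WI these 3 rose. In IR versus sham Fkbp5 (-1.15) and Sgk1 (-1.08) fell. Fkbp5, a chaperone of the glucocorticoid receptor, was at 72.4 in sham, 13.2 in WI and 32.2 in IR, the same order of libraries as Dusp1, which 3 of the 6 genes had as deposited (Fkbp5, Zbtb16 and Ddit4). With the libraries at a common sum 4 fell in WI versus sham, 1 (Ddit4) rose in IR versus WI, and 5 fell in IR versus sham. The bounds of Dusp1 overlapped between all libraries, and at a common sum its IR versus WI change was -0.0016, so its order did not hold there. A link between these genes and Dusp1 was not tested.

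The neutrophil markers bear on the same contrast in which Dusp4, Dusp5 and Dusp8 rose. All 5 that passed the filter rose in both IR comparisons (4 of them in IR versus sham at a common sum), S100a8 to 211.7 FPKM from 13.6 in sham and 9.17 in WI, and Ly6g was not matched. Cxcr2 (0.127 in sham, 0.163 in WI and 3.65 in IR) passed the filter only through IR, so the count is a description. Of the early granule genes, Mpo was at 0.0598, 0.0131 and 0. Elane was at 0.0955, 0 and 0.118, with upper bounds of 11.0 in sham and 16.0 in IR that leave its level undetermined. The part of these cells in the rise of the members was not tested. Cholangiocyte markers summed to 2.48, 3.29 and 6.92 FPKM, sinusoidal endothelial markers to 126.5, 91.8 and 103.3, stellate cell markers to 46.7, 30.2 and 22.7, and lymphocyte markers to 6.15, 4.69 and 2.39. The endothelial sum was higher in IR than in WI through Lyve1, at 11.2, 2.73 and 33.4 FPKM. The median log2 change of the endothelial list in IR versus WI was -0.09.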

How the data were processed

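The data are mRNA profiles of mouse liver from 3 groups, with 1 library each. According to the study's methods and the submitters' processing notes, the authors mapped read pairs to mm10 with TopHat2 2.0.9 and computed FPKM with Cuffdiff of Cufflinks 2.0.2, and the deposited tables give the FPKM of each gene with 95% bounds and a status. The tables hold no counts, so the number of fragments behind each gene is unknown. FPKM values are relative to each library's own total, so a few very abundant transcripts can shift all others.

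Here FPKM + 1 (pseudocount 1) was put on the log2 scale, and genes reaching FPKM 1 in any library were tested against a 2-fold rule. Fold changes on this scale understate changes of low genes. Ratios of FPKM use no pseudocount, and their 95% intervals combine the relative half-widths of the upper bounds on the natural log scale. A second rule asked for bounds that do not overlap. All 8 members had status OK in every library. The 2-fold rule was tested on simulated data with known changes. Genes were named by rule: the members, the 3 nearest profiles of each called member, the main MAP kinases (1 is not reported here) and at most 4 genes of each list by size of change. The sex-linked and cell type markers, Dusp2, Dusp7 and genes described for their role among those called follow their lists. The members and lists were chosen with earlier results of these data known. Emr1 was matched as an older name of Adgre1. Starts were counted from 1. Promoters came from RefSeq (GRCm38.p6). Alternatives were pseudocounts of 0.1 and 0.01, no filter or FPKM of at least 5, a 1.5-fold rule, and rescaling to a common sum or by median ratio. The recount of the lists and of the summed members at a common sum was added after seeing the data. Python 3.11.15, numpy 2.4.6, pandas 2.3.3 and matplotlib 3.10.9 were used.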

Additional observations from a re-analysis of the deposited data

How the results depend on the processing

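Each group has 1 library, so leaving out a replicate was not possible. No paired analysis was possible because each group has 1 library. Of 96 recomputed log2 changes of single members, 89 moved by less than the 95% half-width of the change and 7 by more, and 0 reversed while called. All 7 came from the smaller pseudocounts. The half-widths were wider than every shift made by rescaling, so this tally could not flag a rescaled change. At a common sum Dusp4 in both IR comparisons and Dusp8 in IR versus sham still went under 2-fold. In WI versus sham the count of members past 2-fold went from 0 to 1 (Dusp8) with a pseudocount of 0.1 or 0.01 and to 2 (Dusp1 and Dusp8) with a 1.5-fold rule. The Dusp8 change was then -1.77 and -2.12 with the smaller pseudocounts. In both IR comparisons these 3 settings gave 4 members, with Dusp10, against 3. With FPKM of at least 5 required, 1 member, Dusp5, was counted in IR versus WI and 1 in IR versus sham, against 3 each. Dusp5 reached that level only in IR. Dusp4, Dusp8 and Dusp10 did not reach it in any library, so this filter removed them whatever their change. Of the 6630 genes then tested, 9.25% and 9.58% were past 2-fold in either direction. At a common sum, 1 member (Dusp5) was past 2-fold in IR versus sham, against 3, and 0 had separate bounds there, against 2 as deposited. Over all genes the number past 2-fold in either direction, with pseudocounts of 0.1 and 0.01 and with the 1.5-fold rule in that order, was 382, 447 and 800 in WI versus sham against 200, 1239, 1331 and 2132 in IR versus WI against 778, and 1429, 1505 and 2572 in IR versus sham against 809. At a common sum the number was 1379 in IR versus sham. As shares of the 10792 genes, the counts for those 3 settings were 3.54%, 4.14% and 7.41% in WI versus sham. They were 11.5%, 12.3% and 19.8% in IR versus WI, and 13.2%, 13.9% and 23.8% in IR versus sham. Half-widths of the bounds had a median of 51.9 to 52.0% of FPKM, which limits what a single library can show.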
